A study of Mus musculus with 12 samples.

Results

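Endoplasmic reticulum (ER) protein folding and the unfolded protein response were followed through 33 genes in ribosome-associated RNA of the mouse distal colon. The members were chosen by name: a gene's value was taken from the locus that carries its symbol and an annotated Ensembl transcript, or from the locus with the highest mean where several did. Of the 33, 30 were found on a locus of their own among 24394 annotated symbols. The other 3 (Pdia4, Manf and Ssr3) shared a merged locus with another gene and are described apart. A filter of at least 1 FPKM (fragments per transcript length and library size, the unit of all levels here) in at least 3 libraries was passed by 28 of the 30, and Derl3 and Ern1 did not pass it.

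The study isolated RNA bound to tagged ribosomes from the myenteric plexus, the nerve and glia network between the muscle layers of the gut, and asked how enteric glia respond to colitis with and without a block of the neurokinin 2 receptor. There were 12 libraries in 4 groups of 3. All mice were C57BL/6 with the genotype Sox10::CreERT2+/- / Rpl22tm1.1Psam/J and were fed tamoxifen, so that a Cre driven by Sox10, a glial transcription factor gene, switches on an HA tag on the ribosomal protein RPL22. The Saline_Vehicle mice had a saline enema and injections of dilute DMSO, and the DNBS_Vehicle mice had an enema of di-nitrobenzene sulfonic acid (DNBS) in ethanol and the same injections. The Saline_GR159897 and DNBS_GR159897 mice had these enemas with injections of GR159897, an antagonist of the neurokinin 2 receptor, in DMSO. Tissue was taken 48 hours after the enema, and the injections started 24 hours before it. Of the DNBS_GR159897 libraries 2 are from females and 1 from a male, while in the remaining groups 1 is from a female and 2 are from males. The labels used here state no ages. The saline enema is described without ethanol, so DNBS and its ethanol solvent cannot be told apart.

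Secreted and membrane proteins enter the ER through the SEC61 translocon and are folded there by chaperones, disulfide isomerases and the lectins calnexin and calreticulin, and misfolded proteins are pulled back into the cytosol for degradation (ER-associated degradation, ERAD). When unfolded proteins accumulate, the sensors IRE1 (Ern1), ATF6 and PERK (Eif2ak3) start the unfolded protein response, in which the factors XBP1 and cleaved ATF6 raise the transcription of chaperone and ERAD genes, while PERK lowers general translation. XBP1 is made in its active form after IRE1 splices its mRNA, and gene-level values such as these do not separate the spliced from the unspliced form.

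The ER stress element, the DNA site through which ATF6 and XBP1 act on chaperone genes, is shown because some of the members hold it. The members were chosen as genes of this response, so finding the element among them is no independent result. It was searched on both strands as CCAAT, 9 bases of any kind and CCACG in RefSeq promoters (GRCm38.p6, 250 bases before to 50 after each start). Of the 33 members, 27 had a promoter in that table, and 9 of these 27 held a match. Of all 32851 promoters 0.119% held one, counted by promoter (39, of 37 genes) and not by gene. The capitals mark the CCAAT and CCACG ends of the element, or their complements ATTGG and CGTGG where it lies on the strand opposite to the one printed, and each line follows the strand of its gene.
Hspa5, chr2:34772025-34772043 on the plus strand: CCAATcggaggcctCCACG
Dnajc3, chr14:118937827-118937845 on the plus strand: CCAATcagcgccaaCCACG
Pdia6, chr12:17266491-17266509 on the plus strand: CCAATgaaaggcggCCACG
Syvn1, chr19:6046532-6046550 on the plus strand: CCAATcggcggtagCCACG
Creld2, chr15:88819520-88819538 on the plus strand: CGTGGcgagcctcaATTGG
Derl3, chr10:75893242-75893260 on the plus strand: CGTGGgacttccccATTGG
Canx, chr11:50325800-50325818 on the minus strand: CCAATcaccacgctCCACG
Calr, chr8:84847075-84847093 on the minus strand: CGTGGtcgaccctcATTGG
Hsp90b1, chr10:86705638-86705656 on the minus strand: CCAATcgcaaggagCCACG
Hsp90b1, chr10:86705533-86705551 on the minus strand: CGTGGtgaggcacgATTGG
The second form of the element, ATTGG, 1 base of any kind and CCACG, was found in the promoters of Herpud1 and Dnajb11 and in 0.0365% of all promoters. The Herpud1 copy is shown because this gene had one of the largest differences between DNBS and saline libraries.
Herpud1, chr8:94386377-94386387 on the plus strand: ATTGGgCCACG
The XBP1 site TGACGTGG was found in 0.676% of all promoters and in none of the 27. A match is a description of letters, and no binding was measured in this study.

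In Saline_Vehicle libraries the member with the highest level was Pdia3, a disulfide isomerase of glycoproteins, at 161 ± 33.8 FPKM (mean ± SD, n = 3 libraries here and for each group mean below), rank 231 among all symbols. Sec61b, a small translocon subunit, followed at 129 ± 3.77 FPKM, and then came Calr, Canx, Hsp90b1, Creld2, P4hb, Sdf2l1, Herpud1, Pdia6 and Hspa5, from 101 down to 56.4 FPKM. Dnajc3 stood at 49.4 ± 1.19 FPKM and Derl1 at 40.9 ± 6.06 FPKM. Xbp1, Sec61g, Os9, Dnajb11, Ssr1, Sec61a1, Hspa13 and Sel1l lay between 34.8 and 10.4 FPKM, and Dnajb9, Derl2, Syvn1, Edem1, Atf6 and Eif2ak3 between 8.55 and 2.49 FPKM. Derl3, Ern1 and Hyou1 had the lowest means, 1.04, 0.477 and 0.123 FPKM. Along this order, the ranges of neighbours overlapped except for 2 pairs: the lowest Dnajc3 value was above the highest of Derl1, and the lowest of Ern1 above the highest of Hyou1. Per length, each of the 3 sensors had a lower mean level than each of the disulfide isomerases.

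**Figure D1:**
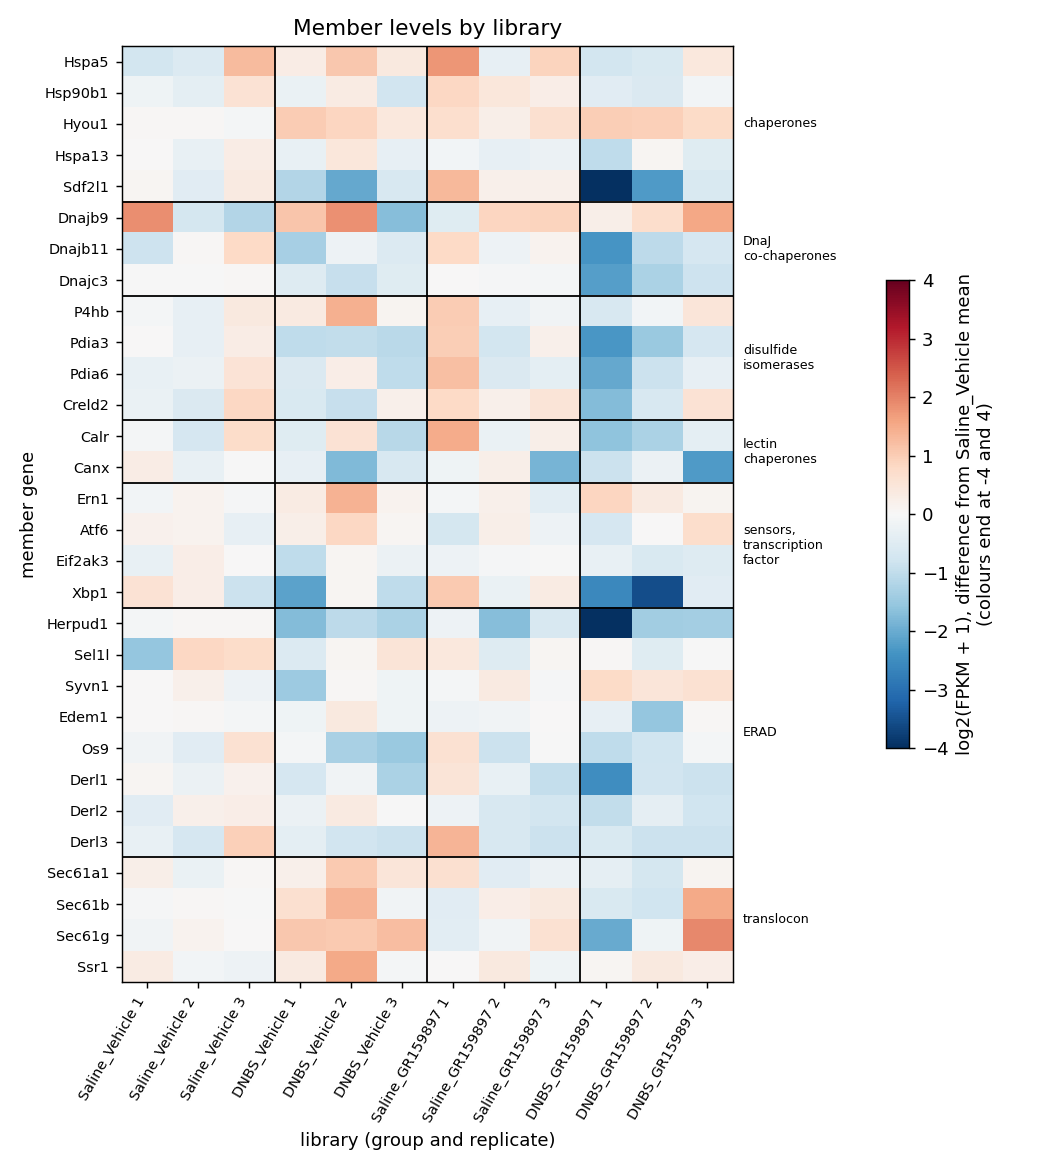
Each cell gives a member's log2(FPKM + 1) in 1 library minus the mean of the Saline_Vehicle libraries, with libraries in columns by group and members in lines by role. In DNBS_GR159897 replicate 1, the column with the most lowest values (13 of the 28 tested members), Sdf2l1 and Herpud1 are at the dark end of the scale.

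The libraries differed in what they held. Loci with an annotated transcript made up 83.5% to 92.6% of the summed FPKM in Saline_Vehicle, 53.8% to 84.0% in DNBS_Vehicle, 75.4% to 95.1% in Saline_GR159897 and 22.6% to 64.5% in DNBS_GR159897 libraries, and 10325 to 11157 genes reached 1 FPKM. Summed FPKM of 4 glial markers (S100b, Sox10, Ednrb and Erbb3) spanned 263 to 512 in Saline_Vehicle and 133 to 397 in DNBS_Vehicle libraries. Gfap has blank cells and is not in these sums. The sums spanned 438 to 570.4 in Saline_GR159897 and 10.9 to 159 in DNBS_GR159897 libraries, and the latter range overlapped that of DNBS_Vehicle. The lowest sum, 10.9 FPKM, was in DNBS_GR159897 replicate 1, beside 113 to 570.4 in the other 11 libraries. Glial markers were thus present in those 11 and low in this one. Summed smooth muscle markers reached 271.6 to 5569 FPKM, so the libraries also held RNA of other cells. DNBS_GR159897 replicate 1 stood apart: its 6 epithelial markers summed to 793 FPKM against 0.43 to 21.6 in the other 11 libraries. Markers of plasma cells and B cells, which are rich in ER, summed to 0.02 to 1.16 FPKM in Saline_Vehicle, 3.76 to 4.59 in DNBS_Vehicle, 0.17 to 1.91 in Saline_GR159897 and 4.40 to 18.3 in DNBS_GR159897 libraries. Summed neutrophil markers spanned 0.25 to 0.64 FPKM in Saline_Vehicle, 9.14 to 565 in DNBS_Vehicle, 0.34 to 12.1 in Saline_GR159897 and 41.2 to 246 in DNBS_GR159897 libraries, and macrophage markers 4.28 to 5.42, 13.0 to 20.2, 3.0 to 7.23 and 10.7 to 18.7 FPKM in the same order. Of the plasma cell and B cell markers, Sdc1 made up most of the DNBS_Vehicle sums, at 4.16, 3.76 and 3.70 FPKM. Jchain was at 0, 0 and 0.25 FPKM in these libraries, against 0.02, 0.19 and 0.37 FPKM in Saline_Vehicle. Mzb1 was at 0 FPKM in the Saline_Vehicle, DNBS_Vehicle and Saline_GR159897 libraries and at 7.93 FPKM in DNBS_GR159897 replicate 1. Outside that library Jchain stayed at or under 0.37 FPKM. In such bulk RNA, fewer cells of a type and less RNA per cell cannot be told apart, and the part of these differences in the members' values was not tested beyond the fits given below.

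Averaged over both drug arms, DNBS libraries had lower values than saline libraries for 19 of the 28 tested members and higher values for 9, and none passed the threshold of 0.05 on adjusted p. The members with the smallest p were Sdf2l1, Pdia3, Dnajc3, Xbp1 and Herpud1, each at a lower mean in both DNBS groups than in the saline group of the same arm, with adjusted p between 0.0544 and 0.0818 in limma. Of all 12777 genes tested in this comparison, 1226 passed (9.6%), 353 higher and 873 lower, beside 0 of 28 members. At an unadjusted p under 0.05 limma had 7 members lower and 1 higher, and 28.3% of all genes. The median log2 fold change of the members was -0.32, beside -0.18 over all genes, 61.2% of which were lower. In the same comparison all 4 glial markers tested were lower, and 3 passed. These were Sox10 (-2.98 ± 0.80), Ednrb (-1.85 ± 0.52) and Erbb3 (-1.18 ± 0.32; limma adjusted p = 0.0374, 0.0441 and 0.0388), while S100b did not pass. In the vehicle arm the libraries of Sox10 and Erbb3 overlapped, and those of Ednrb and S100b did not. DNBS_GR159897 replicate 1, which was low in glial markers, is part of the averaged values. The 3 neutrophil markers tested rose, S100a8 by 4.72 ± 0.76, S100a9 by 4.77 ± 1.20 and Retnlg by 3.75 ± 0.86 (limma adjusted p = 0.00589, 0.0323 and 0.0247), as did 2 of 5 macrophage markers, Cd68 (1.25 ± 0.25, adjusted p = 0.0142) and Mrc1 (1.28 ± 0.26, adjusted p = 0.0146), and Sdc1 of the plasma cell and B cell list (1.90 ± 0.29, adjusted p = 0.00463). Sdc1 was the only tested gene of its list. Retnlg reached 1 FPKM in no saline library. Among saline libraries, S100a8, S100a9 and Sdc1 reached it only in Saline_GR159897 replicate 3, and Mrc1 only in Saline_GR159897 replicate 2. Retnlg, S100a8, S100a9, Sdc1 and Mrc1 had thus passed the filter on low values through DNBS libraries, and their direction is no independent result. The part of all these markers' cells in the members' values was not tested. Values were tested with limma on log2(FPKM + 1), where the added 1 understates changes of low genes, with adjustment after Benjamini-Hochberg over all genes tested, and each fold change is given on this scale with its standard error (SE).

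**Figure D2:**
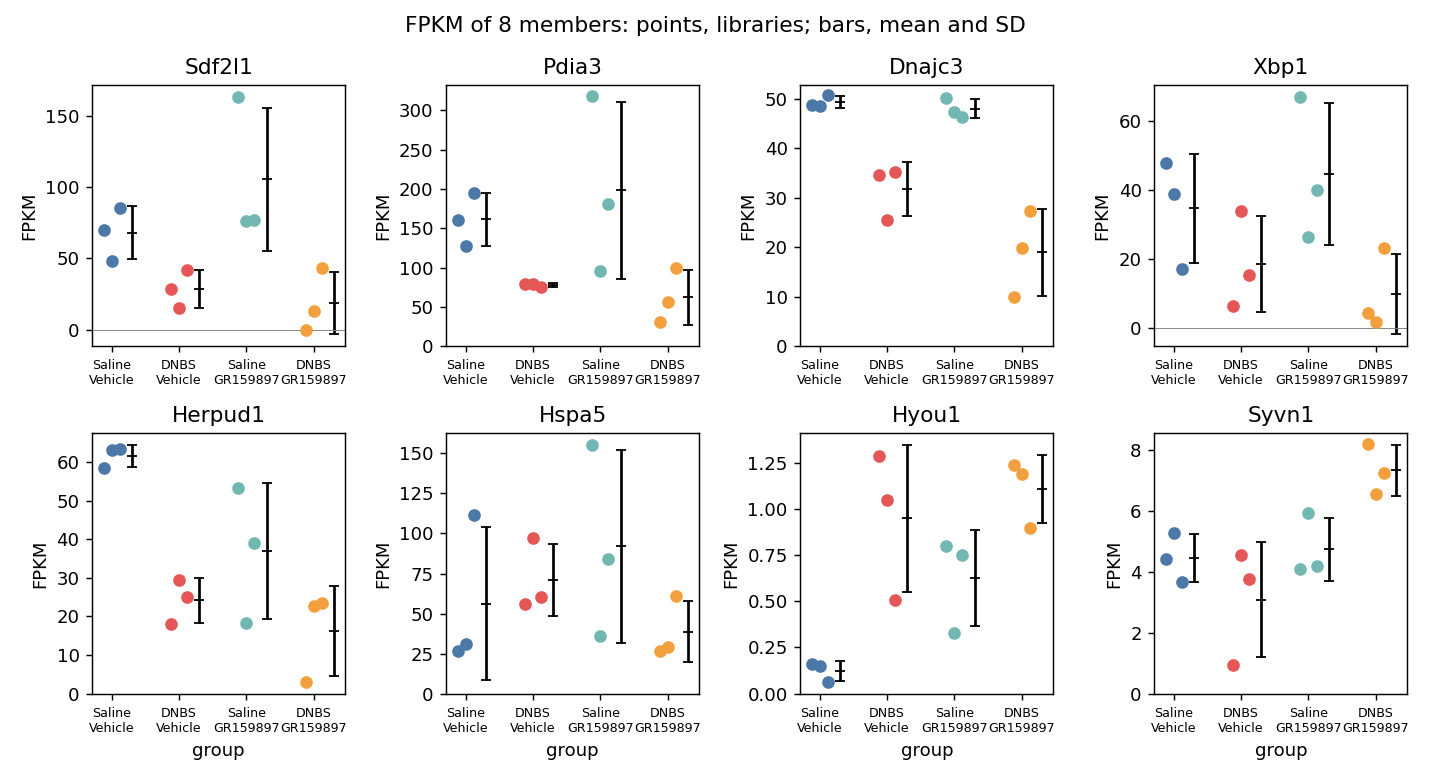
FPKM of 8 members by group, with a point for each library and a bar for the group mean ± SD (n = 3); each panel has its own linear axis from 0. The 6 DNBS libraries lie below the 6 saline libraries for Dnajc3 and Sdf2l1, and the groups overlap for Hspa5.

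Among the chaperones, Sdf2l1, a cofactor that works with HSPA5, was lower with DNBS in each arm. Its level was 70.2, 48.4 and 85.6 FPKM in the Saline_Vehicle libraries (replicates 1 to 3, here and throughout) and 28.6, 15.2 and 42.1 FPKM with DNBS_Vehicle. Under the antagonist it was 164, 76.1 and 76.9 FPKM with saline and 0, 13.0 and 43.1 FPKM with DNBS. All 6 DNBS libraries were under all 6 saline libraries, and DNBS_GR159897 replicate 1 was listed at 0. The averaged log2 fold change was -2.42 ± 0.73 (adjusted p = 0.0544), with -1.29 ± 1.03 in the vehicle arm (adjusted p = 0.656) and -3.55 ± 1.03 in the antagonist arm (adjusted p = 0.0854). Without DNBS_GR159897 replicate 1 the averaged value was -1.65 and passed the threshold (limma adjusted p = 0.0242). It passed in 3 of 18 other settings, and the highest adjusted p among the 18 was 0.131, without Saline_GR159897 replicate 1. Sdf2l1 lies on chr16:17130138-17132383 (minus strand; GENCODE M21, GRCm38, as for each gene position here).

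Hspa5 (BiP, the main HSP70 chaperone of the ER and the classic mark of the unfolded protein response; chr2:34771970-34777547, plus strand) had no lower mean in the DNBS_Vehicle group. It stood at 26.7, 31.0 and 112 FPKM in Saline_Vehicle libraries and 56.0, 96.9 and 60.3 in DNBS_Vehicle libraries. With the antagonist it stood at 155, 36.3 and 84.4 FPKM after saline and 27.0, 29.2 and 61.0 FPKM after DNBS. The 4 groups overlapped, and Saline_Vehicle replicate 3 was the highest of its group. The averaged log2 fold change was -0.24 ± 0.47 (limma adjusted p = 0.772), with opposite signs in the arms, 0.59 ± 0.67 with vehicle and -1.08 ± 0.67 with the antagonist; the difference between the arms was -1.67 ± 0.95 (interaction, adjusted p = 0.957).

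Hsp90b1 (GRP94, the HSP90 of the ER) had 83.3, 72.2 and 140.1 FPKM in Saline_Vehicle libraries and 79.1, 119.7 and 55.0 in DNBS_Vehicle libraries, which overlapped. In the antagonist arm it had 170.1, 131 and 113 FPKM with saline and 68.8, 63.2 and 88.3 FPKM with DNBS, which did not. Its averaged log2 fold change of -0.56 ± 0.34 did not pass (limma adjusted p = 0.308), and Gm15344 and Gm25745 on the same strand and 1810014B01Rik on the opposite strand share exon positions with it. Hspa13, a small HSP70-like ATPase of the ER, ranged from 4.56 to 14.5 FPKM over the 12 libraries with an averaged value of -0.16 ± 0.28.

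Hyou1, an ER chaperone of the HSP110 type that exchanges nucleotides on HSPA5, was the member with the smallest p among those higher with DNBS. It had 0.16, 0.15 and 0.06 FPKM in Saline_Vehicle, 1.29, 1.05 and 0.51 in DNBS_Vehicle, 0.8, 0.33 and 0.75 in Saline_GR159897 and 1.24, 1.19 and 0.9 in DNBS_GR159897 libraries. Every group was above the Saline_Vehicle libraries, and its averaged log2 fold change was 0.58 ± 0.21 (limma adjusted p = 0.0902). It reached 1 FPKM only in DNBS libraries, 4 of them, so the filter on low values had admitted it through the group where it was high and its direction is no independent result. 

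The DnaJ proteins hand substrates to HSPA5. Dnajc3 (P58IPK, also an inhibitor of PERK; chr14:118937976-118981697, plus strand) is described in full although no rule named it, a choice made after its values were seen. After saline it had 48.8, 48.6 and 50.8 FPKM with vehicle and 50.2, 47.4 and 46.4 FPKM with the antagonist. With DNBS it had 34.6, 25.4 and 35.2 FPKM without and 9.87, 19.8 and 27.2 FPKM with the antagonist. The lowest saline library was above the highest DNBS library, and the group means were 49.4 ± 1.19 FPKM in Saline_Vehicle, 48.0 ± 1.99 in Saline_GR159897, 31.7 ± 5.45 in DNBS_Vehicle and 19.0 ± 8.72 in DNBS_GR159897. Its averaged log2 fold change was -1.02 ± 0.31 (limma adjusted p = 0.0573), -0.64 ± 0.44 in the vehicle arm and -1.40 ± 0.44 in the antagonist arm (adjusted p = 0.595 and 0.104). After scaling each library to the same annotated total it was -0.81 with an adjusted p of 0.0463, and without DNBS_GR159897 replicate 1 it was -0.82 with an adjusted p of 0.0366. Dnajc3 passed in 4 of 18 other settings, with the highest adjusted p, 0.125, without Saline_Vehicle replicate 3.

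Dnajb11 (ERdj3, a soluble partner of HSPA5) ranged from 2.72 to 31.9 FPKM, with an averaged log2 fold change of -1.15 ± 0.40 (limma adjusted p = 0.0869). In the antagonist arm its 3 DNBS libraries were all under its 3 saline libraries. Dnajb9 (ERdj4, a target of XBP1) varied more within groups than between them, at 21.2, 2.74 and 1.71 FPKM in Saline_Vehicle, 12.2, 20.7 and 0.85 in DNBS_Vehicle, 3.37, 10.1 and 10.2 in Saline_GR159897 and 6.10, 8.84 and 16.9 in DNBS_GR159897 libraries. The averaged difference of Dnajb9 was 0.41 ± 0.65 (limma adjusted p = 0.723).

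Of the 4 tested members with thioredoxin-like or isomerase functions, 3 were lower in the averaged comparison and none passed. Pdia3 (ERp57, which pairs with calnexin and calreticulin; chr2:121413775-121438687, plus strand) had 161, 128 and 195 FPKM in Saline_Vehicle libraries and 78.7, 79.5 and 75.4 in DNBS_Vehicle libraries, a group with an SD of only 2.15. In the antagonist arm it had 318, 95.4 and 181 FPKM with saline and 30.9, 56.5 and 99.7 FPKM with DNBS, and only the vehicle arm was free of overlap. Its averaged log2 fold change was -1.33 ± 0.41 (limma adjusted p = 0.0562), -1.02 ± 0.57 in the vehicle and -1.64 ± 0.57 in the antagonist arm. This value passed the threshold in 5 of 18 other settings, among them the scaling to the same annotated total (-1.11, adjusted p = 0.0435) and the fit without DNBS_GR159897 replicate 1 (-1.12, adjusted p = 0.0479); the highest adjusted p among the 18 was 0.134, without Saline_Vehicle replicate 3. Catsper2 shares exon positions with Pdia3 on the opposite strand.

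Pdia6 ranged from 12.6 to 129 FPKM and had an averaged log2 fold change of -0.79 ± 0.44. P4hb (protein disulfide isomerase itself) ranged from 47.5 to 203 FPKM with 0.18 ± 0.40. For Creld2, a secreted protein induced by ER stress, these were 21.4 to 133 FPKM and -0.78 ± 0.44. The 3 genes had limma adjusted p-values of 0.258, 0.804 and 0.272. Pdia6 and P4hb shared no single library of highest value: it was Saline_GR159897 replicate 1 for Pdia6 and DNBS_Vehicle replicate 2 for P4hb.

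The lectin chaperones, which hold glycoproteins during folding, were lower with DNBS without passing the test. Calreticulin (Calr) had 89.5, 58.9 and 156 FPKM in Saline_Vehicle libraries and 66.4, 141 and 42.8 in DNBS_Vehicle libraries, and under the antagonist 262, 78.3 and 111 FPKM with saline and 30.03, 38.0 and 71.7 FPKM with DNBS. Only in the antagonist arm did its groups not overlap, and its averaged log2 fold change was -0.96 ± 0.45 (limma adjusted p = 0.186). Calnexin (Canx) ranged from 19.5 to 120.3 FPKM, with -0.72 ± 0.48 averaged (adjusted p = 0.348).

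Of the sensors and their transcription factor, Xbp1 (chr11:5520659-5525893, plus strand) had the largest difference. It had 48.0, 38.9 and 17.3 FPKM in Saline_Vehicle libraries and 6.51, 33.9 and 15.4 in DNBS_Vehicle libraries, which overlapped. In the antagonist arm it had 67.1, 26.6 and 40.1 FPKM with saline and 4.57, 1.85 and 23.3 FPKM with DNBS, which did not overlap. The averaged log2 fold change was -1.78 ± 0.55 (limma adjusted p = 0.0598), with -1.02 ± 0.78 in the vehicle arm (adjusted p = 0.639) and -2.55 ± 0.78 in the antagonist arm (adjusted p = 0.098). Without DNBS_GR159897 replicate 3, its highest library of that group, the antagonist-arm value was -3.42 and passed (adjusted p = 0.0326), while without Saline_GR159897 replicate 1 the adjusted p was 0.303. The averaged Xbp1 value passed in 2 of 18 other settings, with an adjusted p of up to 0.142.

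The sensors themselves were low. Ern1 was at 0.37, 0.64 and 0.42 FPKM in Saline_Vehicle, 0.85, 2.85 and 0.62 in DNBS_Vehicle, 0.4, 0.7 and 0.09 in Saline_GR159897 and 1.65, 0.88 and 0.6 in DNBS_GR159897 libraries, and it was not tested because it did not pass the filter. Atf6 stood at 3.97, 3.81 and 2.50 FPKM in Saline_Vehicle, 4.13, 6.80 and 3.66 in DNBS_Vehicle, 1.68, 4.10 and 2.79 in Saline_GR159897 and 1.74, 3.45 and 6.11 in DNBS_GR159897 libraries. The averaged Atf6 difference was 0.32 ± 0.30 (limma adjusted p = 0.517). Eif2ak3, the gene of PERK, stood at 1.81, 3.14 and 2.51 FPKM in Saline_Vehicle, 0.72, 2.60 and 1.92 in DNBS_Vehicle, 1.98, 2.36 and 2.41 in Saline_GR159897 and 1.79, 1.28 and 1.41 in DNBS_GR159897 libraries. Its averaged difference was -0.39 ± 0.24 (adjusted p = 0.307), and its 3 DNBS_GR159897 libraries were under its 3 Saline_GR159897 libraries. Neither of the 2 sensors tested, Atf6 and Eif2ak3, passed the threshold in any of the 6 comparisons.

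In ER-associated degradation, 6 of 7 tested members were lower in the averaged comparison, of which Sel1l and Derl2 were higher after scaling to the same annotated total. Herpud1 (HERP, a membrane protein of the HRD1 ligase complex; chr8:94386438-94395377, plus strand) had 58.4, 63.1 and 63.4 FPKM in Saline_Vehicle libraries and 17.9, 29.4 and 25.0 in DNBS_Vehicle libraries. Under the antagonist it had 53.2, 18.2 and 39.0 FPKM with saline and 2.87, 22.6 and 23.4 FPKM with DNBS. All Saline_Vehicle libraries were above all libraries of each other group, the Saline_GR159897 libraries included. The averaged log2 fold change was -1.38 ± 0.47 (limma adjusted p = 0.0818), -1.34 ± 0.67 with vehicle and -1.41 ± 0.67 with the antagonist, and the antagonist alone gave -0.85 ± 0.67 (adjusted p = 1).

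Syvn1 (HRD1, the ubiquitin ligase at the centre of this complex; chr19:6046576-6053712, plus strand) was highest where both treatments were combined. Its levels were 4.44, 5.28 and 3.68 FPKM in Saline_Vehicle, 0.97, 4.57 and 3.77 in DNBS_Vehicle, 4.09, 5.94 and 4.22 in Saline_GR159897 and 8.20, 6.55 and 7.25 in DNBS_GR159897 libraries. The DNBS_GR159897 libraries were above all 9 others, and its averaged DNBS difference was 0.00 ± 0.29 (limma adjusted p = 0.994). The gene Mrpl49 shares exon positions with Syvn1 on the opposite strand. Sel1l, the adaptor of HRD1, ranged from 2.11 to 15.2 FPKM, with an averaged value of -0.06 ± 0.42.

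Os9, a lectin that brings glycoproteins to HRD1, had 18.9, 15.0 and 32.5 FPKM in Saline_Vehicle, 19.8, 7.93 and 6.83 in DNBS_Vehicle, 32.7, 11.1 and 20.6 in Saline_GR159897 and 9.90, 11.6 and 19.8 in DNBS_GR159897 libraries. The DNBS libraries reached into the saline range, and the averaged difference was -0.75 ± 0.38 (limma adjusted p = 0.216). Edem1, a mannosidase-like protein of the same route, ranged from 0.58 to 5.11 FPKM with -0.24 ± 0.29. Of the derlins, membrane proteins through which substrates leave, Derl1 ranged from 6.45 to 58.3 FPKM with -0.90 ± 0.40 averaged (adjusted p = 0.166); a processed pseudogene holds a near-identical stretch of it. Derl2 had 4.09, 7.14 and 7.38 FPKM in Saline_Vehicle, 5.02, 8.10 and 5.98 in DNBS_Vehicle, 5.05, 3.53 and 3.26 in Saline_GR159897 and 2.56, 4.50 and 3.06 in DNBS_GR159897 libraries, and its averaged difference was -0.07 ± 0.26. Derl3 was from 0 to 3.66 FPKM and was over 1 FPKM only in Saline_Vehicle replicate 3 and Saline_GR159897 replicate 1.

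All 4 translocon members had higher averaged values with DNBS, also after scaling to the same annotated total, with a median of 0.34 and none past the threshold. In the vehicle arm all 4 were higher, with a median of 0.61, and in the antagonist arm 3 of 4 were lower, with a median of -0.07, of which Sec61a1, Sec61b and Sec61g were higher after the scaling. Sec61g, the gamma subunit, had 23.6, 29.3 and 26.3 FPKM in Saline_Vehicle libraries and 57.1, 55.2 and 63.5 in DNBS_Vehicle libraries, with no overlap. In the antagonist arm it had 19.2, 23.6 and 40.6 FPKM with saline and 5.74, 23.1 and 103 FPKM with DNBS, the latter spanning all other libraries. Its averaged log2 fold change was 0.51 ± 0.54 (limma adjusted p = 0.564), and 4 near-identical copies elsewhere in the genome make its values uncertain, as do 3 for Sec61b.

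Ssr1, a subunit of the translocon-associated protein complex, had 20.4, 14.7 and 13.7 FPKM in Saline_Vehicle, 20.6, 47.5 and 15.2 in DNBS_Vehicle, 16.4, 21.5 and 14.1 in Saline_GR159897 and 17.02, 21.5 and 19.2 in DNBS_GR159897 libraries. DNBS_Vehicle replicate 2 was the one library far above the others, and the averaged difference was 0.38 ± 0.33 (limma adjusted p = 0.474). The channel subunit Sec61a1 had 18.2, 12.5 and 16.1 FPKM in Saline_Vehicle, 18.1, 32.7 and 21.8 in DNBS_Vehicle, 24.5, 11.1 and 13.0 in Saline_GR159897 and 11.8, 9.01 and 16.6 in DNBS_GR159897 libraries, and 0.13 ± 0.31 averaged. Sec61b ranged from 74.0 to 375 FPKM with 0.29 ± 0.47.

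**Figure D3:**
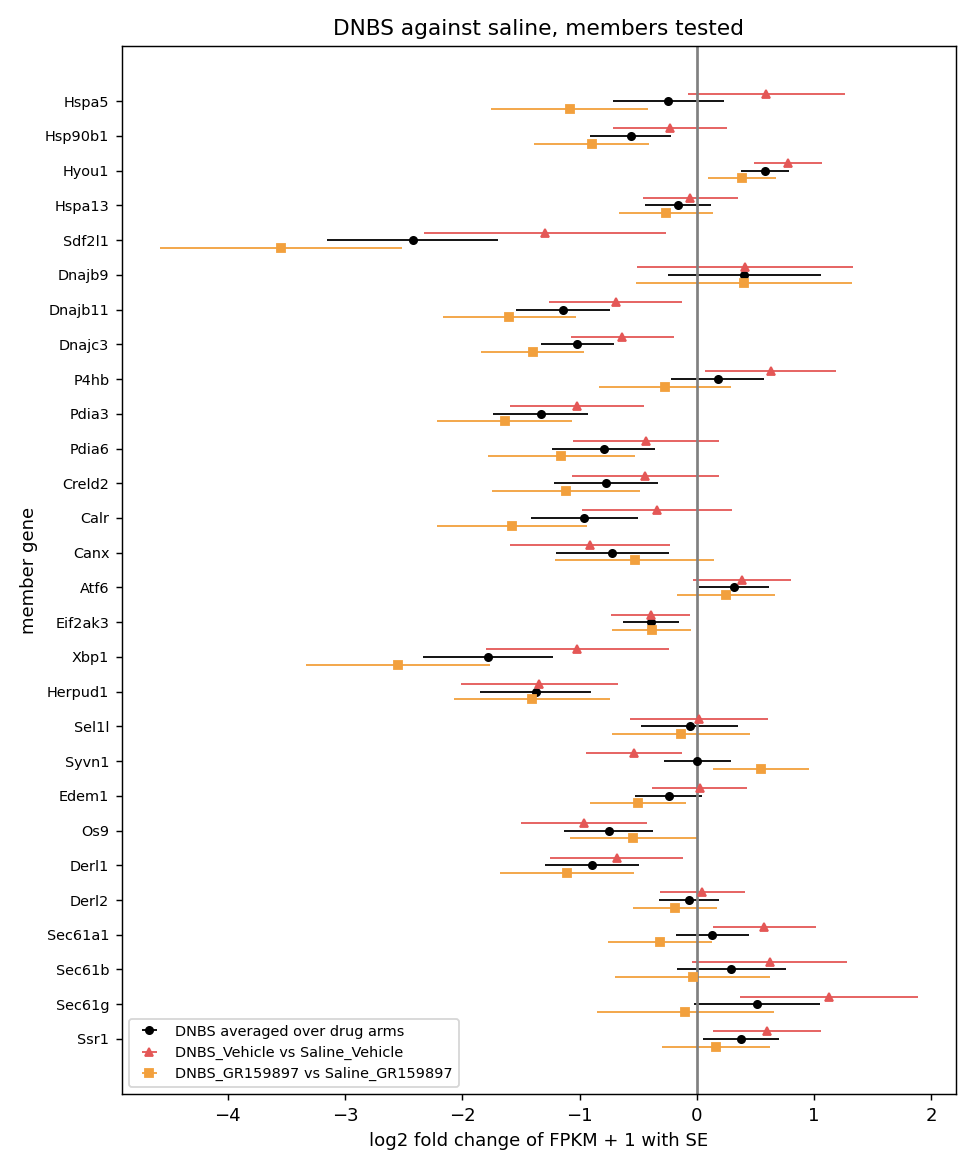
Log2 fold change of DNBS against saline on the log2(FPKM + 1) scale for the 28 tested members, averaged over drug arms (black circles), in the vehicle arm (red triangles) and in the antagonist arm (orange squares); bars are 1 SE from limma over 12 libraries. Sdf2l1 has the lowest averaged value, -2.42, and the averaged values of the 4 translocon members lie at or above 0.13.

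Without the antagonist, DNBS_Vehicle against Saline_Vehicle had 16 members lower and 12 higher. The median was -0.28 beside -0.11 for all genes, 56.8% of which were lower. None of 28 passed in limma, 1 was higher at an unadjusted p under 0.05 (Hyou1), and 0.321% of all genes passed (41, of which 30 higher and 11 lower; 12.6% at the unadjusted p). Groups did not overlap for Herpud1, Dnajc3, Sdf2l1, Pdia3 and Canx among the lower members, 17.9% of the 28 against 14.9% of all genes. They did not overlap for Hyou1 and Sec61g among the higher ones, 7.14% against 9.53%. Both shares were near those of all genes.

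Under the antagonist, DNBS_GR159897 against Saline_GR159897 had 23 members lower and 5 higher. The median was -0.52 beside -0.27 for all genes, 62.4% of which were lower. Again none of 28 passed in limma, while 1.38% of all genes did (49 higher and 127 lower); at an unadjusted p under 0.05 it had 6 members, all lower, and 22.7% of all genes. The 6 were Sdf2l1, Xbp1, Dnajc3, Pdia3, Dnajb11 and Calr. Groups did not overlap for 7 lower members (Xbp1, Dnajb11, Dnajc3, Sdf2l1, Hsp90b1, Calr and Eif2ak3), 25.0% of the 28 against 17.6% of all genes, and for 2 higher ones (Syvn1 and Hyou1), 7.14% against 6.67%. Without DNBS_GR159897 replicate 1 there were also 7 lower and 2 higher, against 20.7% and 12.9% of all genes. Scaling each library to the same annotated total gave a median of -0.07 and 13 of 29 tested members higher, and split the called genes into 50 higher of 91 in place of 49 of 176; P4hb, Sel1l, Derl2, Hspa13, Sec61a1, Sec61b and Sec61g changed sign.

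In the averaged comparison, all 6 DNBS libraries were under all 6 saline libraries for Dnajc3 and Sdf2l1, 7.14% of the 28 against 4.29% of all genes, and no member was above in all 6, against 1.74%. The same 2 members, and 4.74% of all genes, had no overlap without DNBS_GR159897 replicate 1. Scaled to the same annotated total, the members' median was -0.08 (-0.03 for all genes), 13 of 29 were higher, and Sel1l, Derl2 and Hspa13 turned from lower to higher.

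The antagonist without colitis, Saline_GR159897 against Saline_Vehicle, left 16 members at higher and 12 at lower values. The median was 0.07 beside -0.03 for all genes, 46.6% of which were higher. No member and no other gene passed in limma (0% called), no member had an unadjusted p under 0.05, and 1.69% of all genes had one. Hyou1 was higher in all 3 antagonist libraries (0.52 ± 0.29; 3.57% of members against 3.04% of all genes) and Herpud1 lower in all 3 (3.57% against 4.18%). The other members with the smallest p were Hspa5 (0.77 ± 0.67) and Derl2 (-0.52 ± 0.36), both with overlapping libraries. Saline_GR159897 replicate 1 held the highest value of 9 members among the 12 libraries, Calr, Hspa5 and Pdia3 among them, and its smooth muscle markers summed to 1443 FPKM, under those of all libraries but DNBS_GR159897 replicate 1.

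Within colitis, DNBS_GR159897 against DNBS_Vehicle had 24 members lower and 4 higher. The median was -0.61 beside -0.21 for all genes, 62.7% of which were lower. No gene passed in limma (0%), 1 member (Syvn1) had an unadjusted p under 0.05, and so did 8.13% of all genes. Syvn1 was higher without overlap, at 1.15 ± 0.41 (limma adjusted p = 0.607; 3.57% of members against 3.19% of all genes). Derl2 and Sec61a1 were lower without overlap, at -0.76 ± 0.36 and -0.90 ± 0.44 (7.14% against 6.89%). Without DNBS_GR159897 replicate 1 the same shares were 3.57% against 7.19% of all genes for higher and 7.14% against 9.0% for lower. Os9 was higher by 0.33 ± 0.54, with overlapping libraries. The median moved with the settings: it was -0.10 with 13 of 29 higher after scaling to the same annotated total, and -0.17 without DNBS_GR159897 replicate 1, beside 0.11 and -0.06 for all genes. After the scaling Hsp90b1, Pdia3, Canx, Sel1l, Creld2, Eif2ak3, Hspa13 and Ssr1 turned from lower to higher. This comparison shares its DNBS_GR159897 libraries with that of DNBS_GR159897 against Saline_GR159897, and each of the 4 groups stands in more than 1 pairwise comparison, so that their values are not independent.

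**Figure D4:**
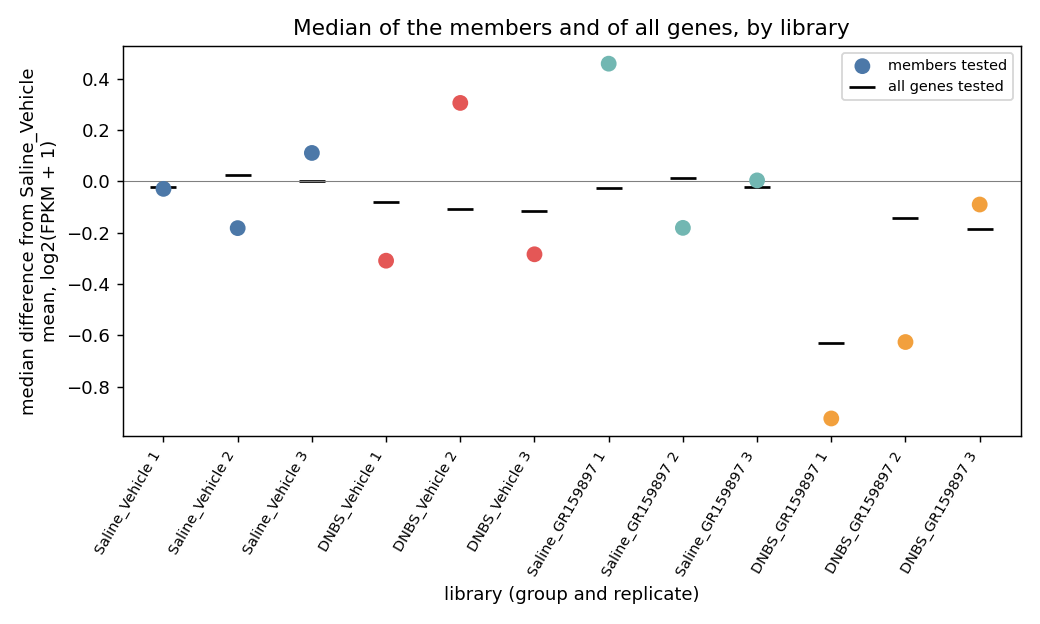
Median over the 28 tested members of the log2(FPKM + 1) difference from the Saline_Vehicle mean, by library (coloured points), with the median over all 12777 genes tested as black dashes. DNBS_GR159897 replicates 1 and 2 have member medians of -0.92 and -0.63 beside -0.63 and -0.14 for all genes, and replicate 3 has -0.09 beside -0.19.

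Whether the DNBS difference itself depended on the antagonist was tested as an interaction. No gene passed in limma (0%), with no member and 3.58% of all genes at an unadjusted p under 0.05. The difference of DNBS against saline was lower in the antagonist than in the vehicle arm for 24 of 28 members and 59.6% of all genes. The median interaction was -0.57, beside -0.18 for all genes. After scaling to the same annotated total that median was -0.14, beside 0.15, with 13 of 29 higher. With a library left out it ran from -0.83 (without DNBS_GR159897 replicate 3) to -0.26 (without DNBS_GR159897 replicate 1, the library high in epithelial markers). The members with the smallest p were Syvn1 (1.08 ± 0.58) and Os9 (0.42 ± 0.76) on the higher side and Hspa5 (-1.67 ± 0.95) and Sdf2l1 (-2.25 ± 1.46) on the lower side. So the larger values of the antagonist arm for Sdf2l1, Xbp1 and Dnajc3 were not shown to differ from those of the vehicle arm.

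By library, the members' share of all annotated FPKM averaged 0.514% ± 0.092 (SD, n = 3) in Saline_Vehicle, 0.467% ± 0.19 in DNBS_Vehicle, 0.601% ± 0.171 in Saline_GR159897 and 0.437% ± 0.087 in DNBS_GR159897. The highest single share was 0.797%, in Saline_GR159897 replicate 1, followed by 0.684% in DNBS_Vehicle replicate 2, which held the highest value of 7 members. These shares overlapped between all groups.

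The members with the ER stress element in the promoter sequences above are described without a test. Of 8 tested, 7 were lower and 1 higher in the averaged comparison, with a median of -0.75. Of the 20 others, 12 were lower and 8 higher, with a median of -0.11, beside 61.2% of all genes lower. The medians were -0.44 and 0.02 in the vehicle arm and -1.10 and -0.29 in the antagonist arm. Within colitis the order was the other way, with -0.42 for the 8 and -0.61 for the others. With the antagonist but no colitis, 6 of the 8 were higher and 2 lower, with a median of 0.285. The 20 others had 10 higher and 10 lower, with a median of 0.0, beside 46.6% of all genes higher. Herpud1 and Dnajb11, with the second form of the element, are among the 20, as are members with no promoter in the table.

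On the 3 merged loci, the averaged log2 fold change was -1.28 ± 0.43 for the locus of Pdia4, an isomerase with several thioredoxin domains, and Mir704 (limma adjusted p = 0.0789). The locus of Manf, a secreted ER stress protein, and Rbm15b had -0.36 ± 0.38 (adjusted p = 0.569). For the locus of Ssr3, a translocon-associated subunit, and A730090N16Rik the value was 0.13 ± 0.33 (adjusted p = 0.823). None passed in any comparison, and these values cannot be divided between the genes of a locus.

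Related genes outside the 33 were read from 6 lists. Passed in the averaged comparison were 0 of 14 PERK and integrated stress response, 2 of 21 other ERAD and 0 of 18 other translocon genes. Of the N-glycosylation genes 1 of 18 passed, of the other ER chaperones 1 higher and 3 lower of 23, and of the other transducers 2 of 9. Of all genes, 9.6% passed there and 61.2% were lower. Whether any list differed from all genes was not tested. Of 14 tested genes of PERK signalling and the integrated stress response, 7 were higher and 7 lower, and none passed (median 0.03). The 2 with the smallest p were Nupr1, a stress-induced nuclear protein (1.73 ± 0.56, limma adjusted p = 0.0677), and Ddit4, an inhibitor of mTOR signalling (-1.04 ± 0.40, adjusted p = 0.11). Nupr1 was at 122 FPKM in DNBS_GR159897 replicate 1 and from 1.85 to 15.9 FPKM in the other 11 libraries. Ddit4 ranged from 3.07 to 30.7 FPKM. Of 18 other translocon and targeting genes, 6 were higher and 12 lower and none passed (median -0.29), Srp14 (-1.17 ± 0.55, adjusted p = 0.181) and Spcs2 (-1.01 ± 0.48, adjusted p = 0.183) being nearest.

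Of 21 other ERAD genes, 17 were lower and 4 higher (median -0.49), and 2 fell. Edem2, which starts mannose trimming of misfolded glycoproteins, had 18.2, 12.8 and 12.5 FPKM in Saline_Vehicle, 7.59, 4.96 and 5.92 in DNBS_Vehicle, 15.3, 8.74 and 10.5 in Saline_GR159897 and 0.81, 3.31 and 3.16 in DNBS_GR159897 libraries. Every DNBS library was under every saline library, and the averaged log2 fold change was -1.52 ± 0.30 (limma adjusted p = 0.0127). Edem2 also fell in the antagonist arm alone, -1.94 ± 0.42 (adjusted p = 0.0447). Svip, an inhibitor of ERAD, fell by 1.55 on the log2 scale (adjusted p = 0.0293), a call that 8 of 18 other settings lost. Of 18 N-glycosylation and glycoprotein folding genes, 16 were lower (median -0.45) and Tusc3, an oxidoreductase subunit of the oligosaccharyltransferase, fell. Tusc3 had 11.7, 12.5 and 16.0 FPKM in Saline_Vehicle, 5.31, 3.16 and 6.59 in DNBS_Vehicle, 17.8, 7.53 and 7.17 in Saline_GR159897 and 0.79, 2.04 and 4.10 in DNBS_GR159897 libraries, all DNBS below all saline. Its averaged log2 fold change was -1.57 ± 0.33 (adjusted p = 0.0162).

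Of 23 other ER chaperones and oxidative folding genes, 19 were lower and 4 higher (median -0.69), 3 fell and 1 rose. Fkbp11, a prolyl isomerase known from secretory cells, rose, with 3.38, 2.46 and 5.61 FPKM in Saline_Vehicle, 23.8, 11.9 and 10.0 in DNBS_Vehicle, 2.41, 1.53 and 2.15 in Saline_GR159897 and 23.6, 5.52 and 15.0 in DNBS_GR159897 libraries. The averaged log2 fold change was 1.95 ± 0.36 (limma adjusted p = 0.00995), and the lowest DNBS library lay just under the highest saline library. Serpinh1 (HSP47, the chaperone of collagen) fell, with 91.3, 55.8 and 210.4 FPKM in Saline_Vehicle, 36.8, 155 and 43.1 in DNBS_Vehicle, 355, 66.1 and 89.9 in Saline_GR159897 and 7.36, 5.30 and 9 in DNBS_GR159897 libraries. Its averaged value was -2.35 ± 0.53 (adjusted p = 0.021), and in the antagonist arm alone it was -4.0 ± 0.74 (adjusted p = 0.0366), while the vehicle arm overlapped. The averaged Serpinh1 call was lost without Saline_Vehicle replicate 3 (adjusted p = 0.0601) and without the filter on low values (adjusted p = 0.0549). Fkbp7 (-1.68 ± 0.43, adjusted p = 0.0316) and Rcn1, a calcium-binding protein of the ER (-2.01 ± 0.52, adjusted p = 0.0323), fell too, and 9 and 10 of 18 other settings lost these calls.

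Of 9 other stress transducers and processing genes, 7 were lower and 2 higher (median -0.10), and both of the higher ones rose. Creb3l1 (OASIS, an ER-bound transcription factor cleaved like ATF6) had 1.62, 1.51 and 2.34 FPKM in Saline_Vehicle, 14.7, 4.49 and 8.41 in DNBS_Vehicle, 3.46, 1.28 and 0 in Saline_GR159897 and 14.6, 4.56 and 10.5 in DNBS_GR159897 libraries. All DNBS libraries were above all saline libraries, with an averaged log2 fold change of 1.97 ± 0.41 (limma adjusted p = 0.0149). Bak1, a pore-forming protein of apoptosis that also binds IRE1, had 1.32, 1.21 and 0.53 FPKM in Saline_Vehicle, 3.68, 6.37 and 2.93 in DNBS_Vehicle, 0.36, 2.08 and 1.15 in Saline_GR159897 and 5.42, 2.58 and 3.90 in DNBS_GR159897 libraries, again with no overlap. Its averaged value was 1.29 ± 0.28 (adjusted p = 0.0192), a call lost without Saline_Vehicle replicate 3 (adjusted p = 0.0596) and without Saline_GR159897 replicate 1 (adjusted p = 0.0522). The calls of Edem2, Tusc3, Fkbp11 and Creb3l1 in the averaged comparison held in all 18 other settings. In the antagonist arm alone, 15 of 18 other settings lost the call of Edem2 and 8 that of Serpinh1. In the other 4 comparisons limma called no gene of the 6 lists.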

How the data were processed

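The 12 libraries are ribosome-associated RNA from the distal colon myenteric plexus, sequenced as paired ends. The authors deposited FPKM values per assembled locus, with 2 decimals, from 99547 loci, of which 24432 carry an annotated transcript. Per the submitters' processing notes the tools were cutadapt 1.10, FastQC 0.10.1, HISAT2 2.0 and StringTie 1.3; for the genome build and annotation nothing is given in the sources used here. FPKM hold no read counts, so the depth of each library, and the counting error of a value, are unknown. No strand is stated, so overlapping genes on opposite strands cannot be told apart.

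From these values, log2(FPKM + 1) was fitted with limma 3.58.1 in R 4.3.3 as 1 model over the 4 groups, with 8 residual degrees of freedom and a trended, robust empirical Bayes step. Tests were two-sided, on the 12777 genes that reached 1 FPKM in 3 or more libraries, with Benjamini-Hochberg adjustment over all of them and a threshold of 0.05. The fit was also run on simulated data with independent noise, the same spread in every library, and shifts added in DNBS_Vehicle only. That simulation held no library that stood apart like DNBS_GR159897 replicate 1, so it cannot show how the fit does with such a library. Gfap has blank cells and was left out. A further glial marker is not reported here. The labels do not say how many mice each library stands for, so p-values measure the spread between these libraries. Alternatives were another pseudocount (0.1), no filter, the replicate number as a block, sex as a term, scaling to the same annotated total, library weights, each library left out in turn, and, added after seeing the data, the 3 merged loci included.

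Members called, the 2 members with the smallest p in each direction of each comparison, and hallmark genes of the response were named with all their values; from the related lists, the called genes, or else the 2 with the smallest p, were named. The members and lists were chosen with earlier results of these data known. Gene positions and shared sequences are from GENCODE M21 (GRCm38), promoters from RefSeq (GRCm38.p6).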

Additional observations from a re-analysis of the deposited data

Results flagged for a closer look

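Loci that carry a member's symbol but no annotated transcript were not used in any comparison. There were 48 of them, and together they held FPKM in every library. In Saline_Vehicle libraries they summed to 4.70, 14.0 and 6.28 FPKM, and in DNBS_Vehicle libraries to 33.9, 23.05 and 24.5 FPKM, so that the lowest DNBS_Vehicle library was above the highest Saline_Vehicle library. In Saline_GR159897 libraries they summed to 2.46, 24.3 and 21.9 FPKM, and in DNBS_GR159897 libraries to 262, 105 and 71.32 FPKM, again with the lowest DNBS library above the highest saline library. These sums were singled out because they are a signal in data outside the comparisons, above the level of the saline libraries. Loci with an annotated transcript held 88.8%, 83.5% and 92.6% of the summed FPKM in Saline_Vehicle and 75.6%, 53.8% and 84.0% in DNBS_Vehicle libraries. Their share was 95.1%, 75.4% and 78.1% in Saline_GR159897 and 22.6%, 56.4% and 64.5% in DNBS_GR159897 libraries. This share was lower in every DNBS than in every saline library of the antagonist arm, and overlapped in the vehicle arm. The FPKM summed over all loci did not overlap in either arm. It was 266932 to 289006 in Saline_Vehicle and 327794 to 401921 in DNBS_Vehicle libraries. In Saline_GR159897 it was 271599 to 312962 and in DNBS_GR159897 libraries 351424 to 488723. The 48 loci were not compared with all loci without an annotated transcript, so their sums are not shown to be particular to the members. What the 48 loci are, and the part of the annotated share and of the summed FPKM in their sums, was not tested.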

How the results depend on the processing

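Counts of called genes depended on the settings, and so did those of called members. For DNBS_Vehicle against Saline_Vehicle, where 41 genes passed, 21 passed with a pseudocount of 0.1, 13 without the filter, 18 with the replicate block, 24 with sex as a term, 514 with library weights, and 0 to 176 when a library was left out in turn. For DNBS_GR159897 against Saline_GR159897 (176) the counts were 42, 18, 31, 25 and 2158 in that order, 91 after scaling to the same annotated total, and 4 to 604 with a library left out. For the averaged comparison (1226) they were 442 without the filter, 805 with sex, 3009 with weights, and 397 (without Saline_Vehicle replicate 3) to 1655 with a library left out. Where 0 genes passed, a pseudocount of 0.1, the scaling and the weights gave 1, 1 and 5 for the antagonist without colitis (0 to 3 with a library left out), 2, 3 and 69 within colitis (0 to 6) and 2, 1 and 5 for the interaction (0 to 2).

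Members called in the averaged comparison were 2 after scaling (Dnajc3 and Pdia3), 9 with weights and 0 to 5 with a library left out: leaving out Saline_GR159897 replicate 2 gave 1, leaving out DNBS_GR159897 replicate 1 gave 3, and leaving out replicate 3 of that group gave 5. In DNBS_GR159897 against Saline_GR159897 they were 6 with weights and 0 to 3 with a library left out. The weights gave DNBS_GR159897 replicate 2 4.22 and replicate 1 0.18, and 0.465 to 2.01 to the other libraries. The members' median was -0.095 after scaling and -0.906 to -0.170 with a library left out within colitis, and -0.072 after scaling for DNBS_GR159897 against Saline_GR159897. With a library left out the median for DNBS_Vehicle against Saline_Vehicle ran from -0.454 to -0.019, the latter without Saline_Vehicle replicate 3; without DNBS_Vehicle replicate 1 or 3 it was -0.081 or -0.053. No called value reversed, but no member was called in the main fit, so this covers only the called genes of the related lists. Of 3222 fold changes fitted in other settings, 180 changed sign.

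Replicate numbers were not shown to pair the libraries: deviations of same-numbered libraries correlated at -0.088 to 0.202 over 18 pairs, 2 of them over 0.1, and 5 of 12 libraries correlated best with their own number. With the replicate block no member passed. With 3 libraries a group and depth unknown, differences of the size of these SEs were not detectable.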
